A study of Mus musculus with 4 samples.

Results

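Among the 55228 names in the table of read counts, 30635 were placeholder names, either Gm followed by digits or a clone name that ends in Rik, and 22 of these were chosen as raised in Trim28 knockout (Trim28 KO) rib cartilage. A locus was chosen when each Trim28 KO library held at least 15 raw counts and the Trim28 KO sum was at least 4 times the wild-type (WT) sum plus 1. Loci on chromosome 4 from 145 to 148 Mb, the site of a zinc finger cluster, and loci on the sex chromosomes were left out, which removed 2 of 24, Gm13212 and Gm13241, both from chromosome 4. The rule used the same 4 libraries and the same contrast as every value below, so the differences of the chosen loci are a description and support nothing further. All 22 carry placeholder names and lay higher in both Trim28 KO libraries, as the rule asks.

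Total RNA had been taken from cells of rib cartilage of E17.5 embryos of the C57BL/6 mouse strain, with 2 libraries of genotype Trim28 KO and 2 of genotype WT. The labels give no other allele, agent or treatment and state neither how the knockout was made, in which cells it acts, nor whether each library stands for an embryo of its own. P-values therefore measure the spread among these samples, which may in part be technical. In bulk tissue, a change in the number of cells of a type and a change in RNA per cell cannot be told apart.

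TRIM28 is a corepressor. KRAB zinc finger proteins bind DNA by sequence, often within transposable elements, and bring TRIM28, which recruits the histone methyltransferase SETDB1 and heterochromatin proteins and so keeps nearby DNA silent. Gm numbers and Rik clone names are provisional mouse gene names, given to transcripts and predicted genes for which no function had been named. They cover coding genes, long noncoding RNAs and pseudogenes. A processed pseudogene is a reverse-transcribed copy of a messenger RNA, whereas an unprocessed one is a duplicated stretch of genomic DNA.

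On chromosome 12 lay 10 of the 22 loci (45.5%), against 129 of the 2440 other tested autosomal Gm and Rik loci (5.29%). All 10 stood between positions 17900734 and 23784131 of the mouse assembly GRCm38 (mm10), a stretch of 5.883 Mb. On the other chromosomes, 4 lay on chromosome 14, 3 on chromosome 7, 2 on chromosome 5, and 1 each on chromosomes 2, 10 and 16. Many of the chromosome 12 loci share a short stretch of sequence, and so sequences from them are shown first.

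The shortest chosen loci, Gm49330 (chr12:17993133-17993258, plus strand) and Gm47385 (chr12:23189273-23189398, minus strand), are single-exon pseudogenes of 126 bases. They match a stretch of the coding gene Asap2 (chr12:21112044-21112169, plus strand), which lies between them and encodes a GTPase-activating protein for ARF proteins. Gm49326 (chr12:17882197-17882322, plus strand) is a further copy, not chosen by the rule. The sequences are from GRCm38, read on the strand of each locus, and are shown because reads from such copies can be hard to place. Capitals mark bases that differ from Asap2.
Gm49330: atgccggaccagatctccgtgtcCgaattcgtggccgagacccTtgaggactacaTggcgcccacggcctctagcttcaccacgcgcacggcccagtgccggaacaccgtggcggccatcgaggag
Gm47385: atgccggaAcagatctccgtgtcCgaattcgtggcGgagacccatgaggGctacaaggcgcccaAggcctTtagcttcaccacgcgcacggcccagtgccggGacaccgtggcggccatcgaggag
Gm49326: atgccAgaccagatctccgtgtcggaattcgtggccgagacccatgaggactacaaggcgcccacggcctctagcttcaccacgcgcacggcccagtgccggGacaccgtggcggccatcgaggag
Asap2: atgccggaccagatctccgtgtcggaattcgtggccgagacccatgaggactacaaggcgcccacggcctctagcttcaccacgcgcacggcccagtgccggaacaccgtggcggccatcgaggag
Gm49330 differed from Asap2 at 3 of 126 bases, Gm47385 at 7 and Gm49326 at 2, and Gm49330 and Gm47385 differed from each other at 8. A search of the annotated transcripts found near copies of Gm49330 under 42 gene names, all on chromosome 12, at 92.1% to 98.4% identity. Asap2 is among them, and some names overlap in position, such as Gm40847 and Gm49370, so they may not all be separate copies. A near copy here means a transcript that matched at 90% identity or more over at least 50% of the locus's longest transcript. With Gm49330 itself, 8 of the 10 chosen chromosome 12 loci held this sequence, the exceptions being Gm49329 and Gm38699.

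Promoter windows, from 250 bases before to 50 after the RefSeq start, were matched for 10 of the 22 loci (RefSeq, GRCm38.p6), of which 4 lie on chromosome 12. Those 4 resembled one another. The windows of 2410018L13Rik (chr12:23010194-23010493, minus strand), Gm38699 (chr12:23800906-23801205, minus strand, before the start of the GENCODE model) and 5730507C01Rik (chr12:18514260-18514559, plus strand) are shown because they are the most alike, with each CG dinucleotide in capitals.
2410018L13Rik: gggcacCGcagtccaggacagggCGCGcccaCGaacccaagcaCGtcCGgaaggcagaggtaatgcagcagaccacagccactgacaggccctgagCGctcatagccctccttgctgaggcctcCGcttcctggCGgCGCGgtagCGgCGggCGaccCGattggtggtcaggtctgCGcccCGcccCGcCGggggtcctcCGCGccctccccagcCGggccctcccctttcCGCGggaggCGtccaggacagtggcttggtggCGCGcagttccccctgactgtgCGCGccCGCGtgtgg
Gm38699: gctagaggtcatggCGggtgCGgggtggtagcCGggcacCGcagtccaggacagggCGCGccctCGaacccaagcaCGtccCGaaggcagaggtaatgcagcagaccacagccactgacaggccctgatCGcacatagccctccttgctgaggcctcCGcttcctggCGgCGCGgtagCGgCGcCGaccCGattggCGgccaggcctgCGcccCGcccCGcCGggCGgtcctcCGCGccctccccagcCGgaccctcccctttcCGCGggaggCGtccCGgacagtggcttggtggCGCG
5730507C01Rik: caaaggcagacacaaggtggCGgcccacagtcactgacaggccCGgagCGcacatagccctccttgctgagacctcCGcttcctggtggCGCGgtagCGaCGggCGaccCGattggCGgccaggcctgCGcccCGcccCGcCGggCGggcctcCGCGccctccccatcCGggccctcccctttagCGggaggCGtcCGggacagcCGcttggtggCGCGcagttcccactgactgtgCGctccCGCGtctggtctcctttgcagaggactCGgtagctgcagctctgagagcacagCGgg
The windows of 2410018L13Rik and Gm38699 were 95.5% identical over a local alignment of 268 columns. That of 5730507C01Rik was 89.0% identical to Gm38699 over 218 columns, and that of 1700030C10Rik, the fourth, was 79.3% identical to Gm38699 over 300. They held 31 CG dinucleotides in 2410018L13Rik, 33 in Gm38699, 30 in 5730507C01Rik and 29 in 1700030C10Rik. Across all 32851 RefSeq promoter windows of this length the median was 7, and 12.9% held 29 or more. In the chromosome 12 stretch itself, 11 of 42 other genes with a window had one that held 29 or more. They included the coding genes Adam17 and Ywhaq, and also Gm40847 and Gm5784, which hold near copies of Gm49330. Richness in CG was thus not limited to the chosen loci. The 6 windows matched on other chromosomes held 1 to 10. CCAAT, searched on both strands, was present in the 4 chromosome 12 windows and in none of the other 6, and occurred in 37.4% of all windows. GGGCGG was present in the same 4 and in 1700007K13Rik, and in 35.7% of all windows. TATAAA was in none of the 10 and in 13.6% of all windows.

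The 4 libraries were of similar depth, with 18616896 and 19903917 counts in Trim28 KO 1 and 2 and 20082123 and 19493435 in WT 1 and 2. Trim28 (chr7:12999114-13031035, plus strand) stood at 51.1 and 54.5 CPM (counts divided by the TMM-scaled library size) in the Trim28 KO libraries, against 225 and 186 CPM in the WT libraries, as the labels say (log2 fold change -1.96 ± 0.20 SE, adjusted p = 2.28e-07, edgeR's quasi-likelihood test). Of 16639 genes tested, 8.64% were called higher and 8.77% lower at an adjusted p under 0.05. Of 31 tested TRIM28 partners and heterochromatin genes, 0 were called higher by edgeR (0 at an unadjusted p under 0.05 and 0 by DESeq2) and 4 lower, with a median log2 fold change of -0.09. The 4 were Trim28 itself, the remodeller gene Chd3 (-0.86), the chromatin gene Atrx (-0.65) and Tasor (-0.62), which encodes a subunit of the HUSH silencing complex. The call of Tasor was lost with each library left out and with library size alone, that of Atrx without Trim28 KO 1, Trim28 KO 2 or WT 2, and that of Chd3 without Trim28 KO 1 (adjusted p = 0.151). Setdb1 had -0.09 (adjusted p = 0.790). All 6 chondrocyte markers were tested and edgeR called 0 of them in either direction, with 1 higher at an unadjusted p under 0.05 and by DESeq2. The summed level of the 6 macrophage markers, 4 of them called higher, was 298 and 187 CPM in Trim28 KO, against 94.0 and 96.1 CPM in WT. Osteoclast markers were called lower in 5 of 5, with summed levels of 226 and 225 CPM in Trim28 KO, against 1011 and 839 CPM in WT. So were osteoblast markers in 3 of 4, Schwann markers in 3 of 4 and erythroid markers in 4 of 4 tested. Of 5 muscle markers only Myog was called, higher (1.39, adjusted p = 0.0176), and their summed level was 522 and 198 CPM in Trim28 KO, against 160 and 327 CPM in WT, so the genotypes overlapped. None of 5 germline and testis markers passed the filter on low counts. The part of these shifts in the values of the Gm and Rik loci was not tested.

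All 22 loci passed the filter on low counts, and all 22 were called higher, beside a background of 8.64% of all tested genes and 4.87% of tested autosomal Gm and Rik loci. Of the 2440 such loci that the rule did not choose, 4.02% were called higher and 8.89% lower. From the rule itself this count says nothing more. Both Trim28 KO libraries lay above both WT libraries for each of the 22, as they did for 28.3% of all tested genes. The log2 fold changes ran from 2.05 to 4.71 with a median of 2.66, and the 10 on chromosome 12 (2.09 to 3.78, median 2.55) covered much the same range as the other 12 (2.05 to 4.71, median 2.81). Summed over the 22, there were 2096 and 1949 counts in Trim28 KO, against 247 and 282 in WT. Trim28 KO 1 was above Trim28 KO 2 in CPM for 16 of the 22. Most of the loci were weakly expressed: their Trim28 KO levels ran from 0.753 to 41.5 CPM and the median over loci was 1.6 RPKM (CPM per kb of exon).

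**Figure D1:**
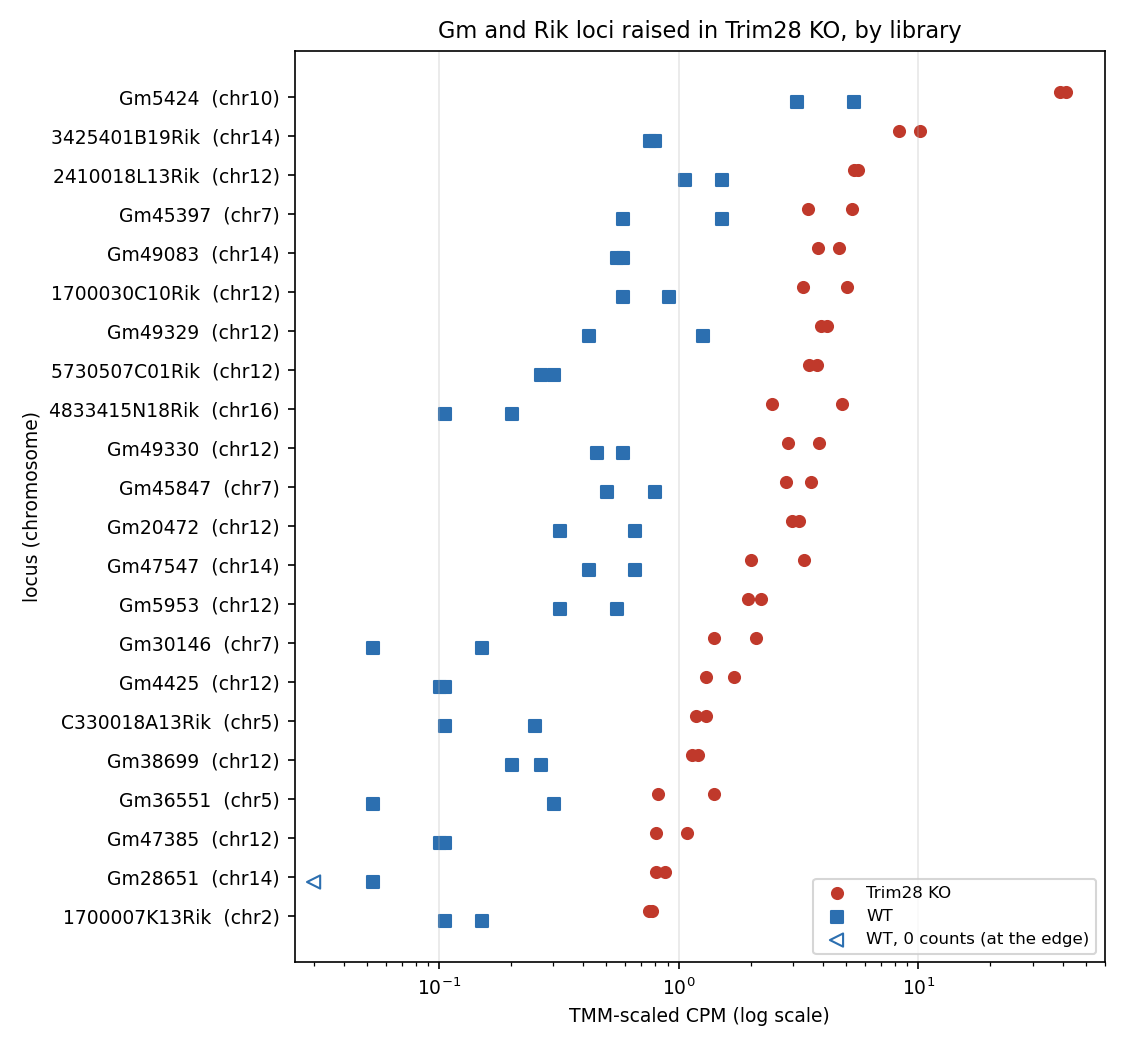
Level of each of the 22 loci in each library, in TMM-scaled CPM on a log axis, with Trim28 KO as red circles and WT as blue squares, and loci ordered by their Trim28 KO mean. Gm5424 is apart at 39.1 and 41.5 CPM in Trim28 KO, 1 WT library of Gm28651 has 0 counts, and no locus has overlapping genotypes, which the rule largely fixes.

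By GENCODE class, 12 of the 22 were long noncoding RNAs (54.5%), 6 were pseudogenes (27.3%), 3 were protein coding (13.6%) and 1, Gm5953, awaited experimental support (4.55%). Among the 2440 other tested loci of these names, 711 were long noncoding (29.1%), 1173 pseudogenes (48.1%), 325 protein coding (13.3%) and 231 of other classes (9.47%). The exon length ran from 126 to 5572 bases with a median of 1670, against 57 to 52997 bases with a median of 1181 for the others. A single exon was annotated for 4 of the 22 (18.2%), against 1440 of the others (59.0%). A requirement for at least 15 counts favours longer exons, so length is not independent of the rule. Near copies were as common in both sets, 11 of 22 (50%) against 1242 of 2440 (50.9%). A near copy on the same chromosome was annotated for 10 of the 22 (45.5%), against 439 of the others (18.0%). All of those 10 but Gm36551, Gm47547 and Gm49083 lie on chromosome 12.

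The protein-coding loci come first. 3425401B19Rik (chr14:32659119-32685293, minus strand, 5572 exon bases) is listed by RefSeq as Cefip, a gene known for a protein of the cardiac Z-disc. It had 197 and 166 counts in Trim28 KO, against 15 and 15 in WT, or 10.1 and 8.33 CPM against 0.797 and 0.758 CPM (log2 fold change 3.56 ± 0.32 SE, adjusted p = 2.79e-08). The WT libraries were nearly equal and both far below the Trim28 KO libraries. On the opposite strand, 355 bases away, starts the long noncoding Gm28651 (chr14:32685648-32689250), which had 17 and 16 counts in Trim28 KO, against 1 and 0 in WT. Its count ratio was 33.9, with a 95% counting interval of 5.68 to 1379, and its fitted log2 fold change of 4.71 moved between 3.85 and 7.07 when 1 WT library was left out. The promoter windows of this divergent pair overlap. As strand was not used in counting, transcripts of the pair are separated only by where their exons lie, and their exons do not overlap.

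1700007K13Rik (chr2:28462001-28466332, minus strand, 965 exon bases), a coding gene with no function given in the annotation, was among the lowest of the set. It had 15 counts in each Trim28 KO library, against 2 and 3 in WT (2.50 ± 0.68, adjusted p = 0.0119). Its call was lost with any single library left out and with DESeq2 (adjusted p = 0.120). The coding gene Mrps2, for a protein of the mitochondrial ribosome, lies 1734 bases from it and had a log2 fold change of 0.40 (adjusted p = 0.179). The third coding locus, 5730507C01Rik, is on chromosome 12 and is described with that stretch.

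Long noncoding loci away from chromosome 12 numbered 9, and 4833415N18Rik, Gm28651 and Gm30146 among them had the largest excess over WT by the rule's own ratio (20.3, 16.5 and 13.8). 4833415N18Rik (chr16:11778429-11781500, plus strand, 1168 exon bases) had 93 and 49 counts in Trim28 KO, against 2 and 4 in WT, a log2 fold change of 4.49 ± 0.56. Gm30146 (chr7:25860140-25869883, plus strand, 605 exon bases) had 41 and 28 counts in Trim28 KO, against 1 and 3 in WT (4.0 ± 0.64). In both, Trim28 KO 1 was the higher of the pair.

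The others on chromosomes 5 and 7 had smaller folds. Gm45847 (chr7:123031415-123068305, plus strand) had 69 and 56 counts in Trim28 KO, against 15 and 10 in WT (2.28 ± 0.42). Gm45397 (chr7:137557112-137564588, minus strand) had 103 and 69 counts in Trim28 KO, against 11 and 30 in WT (2.05 ± 0.41), the smallest log2 fold change of the 22. By ratio, its WT libraries differed more from each other than its Trim28 KO libraries did, and its call was lost without Trim28 KO 1 (adjusted p = 0.0574). C330018A13Rik (chr5:116123614-116129110, plus strand) overlaps the end of Ccdc60 on the opposite strand, with no shared exon, and had 23 and 26 counts in Trim28 KO, against 2 and 5 in WT (2.74 ± 0.60). Ccdc60 had 33 and 42 counts in Trim28 KO, against 53 and 38 in WT, and was not called (-0.31, adjusted p = 0.626). Gm36551 (chr5:137857045-137860318, plus strand, 300 exon bases) had 16 and 28 counts in Trim28 KO, against 1 and 6 in WT (2.59 ± 0.66). It is annotated as antisense and overlaps Pilrb1, a paired immunoglobulin-like receptor gene on the opposite strand, with 97 of its 300 exon bases shared. Pilrb1 had 0 and 2 counts in Trim28 KO, against 4 and 1 in WT, and was not tested. As strand was not used, a read within the shared bases overlaps both genes, and featureCounts leaves such reads out by default. The call of Gm36551 was lost with DESeq2 (adjusted p = 0.0578), without Trim28 KO 2 (0.171) and without WT 1 (0.0871).

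Gm47547 (chr14:41053653-41061614, plus strand) and Gm49083 (chr14:43804696-43812383, minus strand) are long noncoding copies of each other, 97.7% identical over 2391 bases. Gm49083 had 91 and 76 counts in Trim28 KO, against 11 and 11 in WT (2.88 ± 0.40). Gm47547 had 65 and 40 counts in Trim28 KO, against 8 and 13 in WT (2.29 ± 0.46, lost without Trim28 KO 1 at an adjusted p of 0.0639). The copy Gm8113 (chr14:43925390-43933411), 96.0% identical to Gm47547 and 96.9% to Gm49083, had 115 and 99 counts in Trim28 KO, against 120 and 145 in WT (-0.33 ± 0.25, adjusted p = 0.413). It had more counts in WT than either chosen copy had in Trim28 KO, and its genotypes did not differ beyond the spread. A further near copy, AC132253.9 on chromosome 19, was 98.4% identical to Gm47547 and 98.2% to Gm49083. It had no entry among the counts. Gm49708 on chromosome 16 matched a part of both. How reads were shared among these copies is not known from the counts, so each value is uncertain.

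The highest level of the set belonged to Gm5424 (chr10:62071123-62072362, plus strand), a processed pseudogene with a single exon of 1240 bases. It had 759 and 827 counts in Trim28 KO, against 102 and 62 in WT, or 39.1 and 41.5 CPM against 5.42 and 3.13 CPM (3.24 ± 0.24, adjusted p = 2.47e-09). At a mean of 32.5 RPKM in Trim28 KO it was the highest of the 22 per length as well, with Gm49330 next at 26.7 RPKM. Its sequence is 99.5% identical, over all 1240 bases, to Ass1 (chr2:31470207-31520672), which encodes argininosuccinate synthetase, the enzyme that joins citrulline and aspartate on the way to arginine. Ass1, which the rule did not use, had 44 and 69 counts in Trim28 KO, against 7 and 5 in WT (3.18 ± 0.49, 9.05-fold, adjusted p = 5.70e-05). Both genes were higher by close to the same fold, and with so few differences between them their counts cannot be taken as separate measurements. Ass1 was picked for description after the values were seen.

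**Figure D2:**
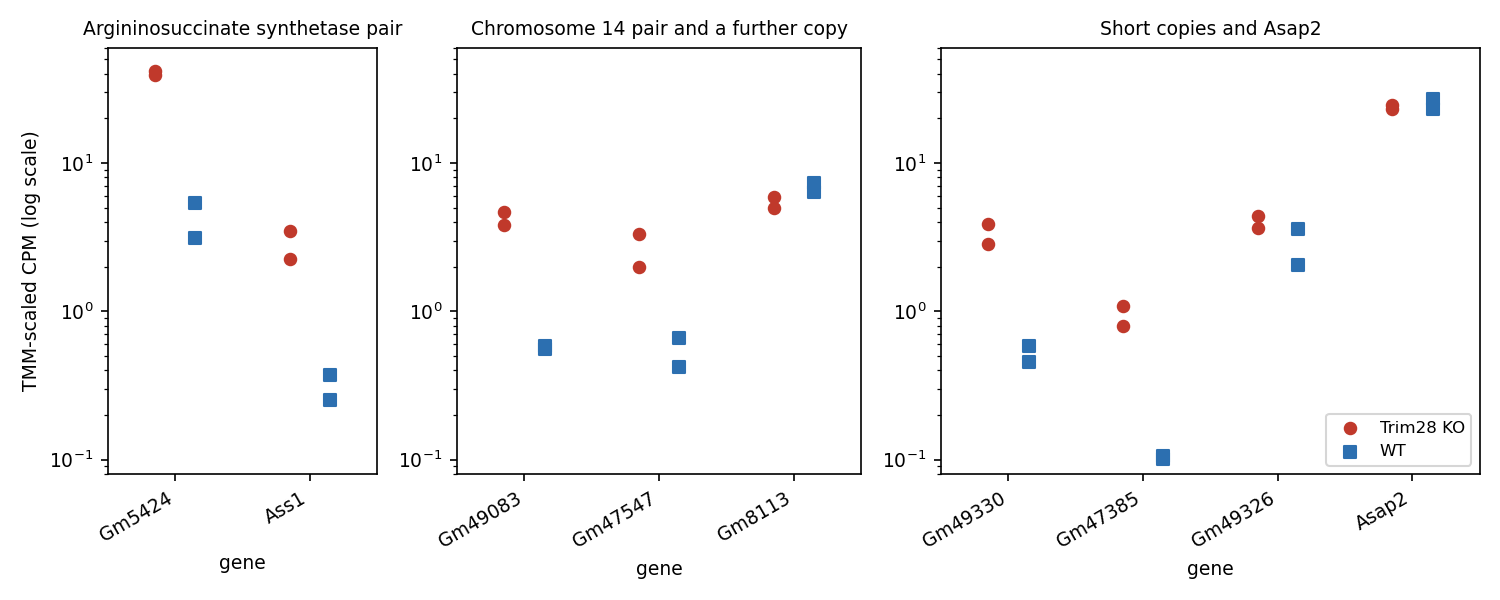
Levels in TMM-scaled CPM, on log axes, of 3 sets of near-identical sequences, with Trim28 KO as red circles left of WT as blue squares, 1 point a library. Gm5424 and Ass1 lie apart by genotype and so do Gm49083, Gm47547, Gm49330 and Gm47385, whereas Gm8113 and Asap2 do not lie higher in Trim28 KO and Gm49326 was not called.

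On chromosome 12, the coding locus 5730507C01Rik (chr12:18514510-18535254, plus strand, 2542 exon bases) had 68 and 75 counts in Trim28 KO, against 5 and 6 in WT, or 3.50 and 3.76 CPM against 0.266 and 0.303 CPM (3.64 ± 0.46, adjusted p = 4.25e-06). Replicates were close in both genotypes. Gm4425 (chr12:22115756-22156646, minus strand), a long noncoding RNA, had the largest log2 fold change of the 10, with 33 and 26 counts in Trim28 KO, against 2 and 2 in WT (3.78 ± 0.64). 2410018L13Rik (chr12:22953997-23010284, minus strand), also noncoding, with 4122 exon bases, was the highest in CPM here. It had 109 and 108 counts in Trim28 KO, against 20 and 30 in WT (2.09 ± 0.33, adjusted p = 8.69e-05). 1700030C10Rik (chr12:20804381-20815779, minus strand), a processed transcript listed under 2 entries whose counts are summed, had 98 and 66 counts in Trim28 KO, against 11 and 18 in WT (2.47 ± 0.40). Gm5953 (chr12:19288562-19291177, plus strand), the single-exon locus awaiting support, had 38 and 44 counts in Trim28 KO, against 6 and 11 in WT (2.23 ± 0.48).

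The other 5 of the stretch are pseudogenes. Gm49329 (chr12:17900734-18065610, plus strand) spans 164877 bases, has 1498 exon bases and contains Gm49330 within its bounds, with no shared exon. Gm49329 had 81 and 78 counts in Trim28 KO, against 8 and 25 in WT (2.24 ± 0.42). Gm49330 had 75 and 57 counts in Trim28 KO, against 11 and 9 in WT (2.68 ± 0.43). The WT libraries of Gm49329 were the less even, yet both stayed below the Trim28 KO libraries. Gm20472 (chr12:23221227-23315358, minus strand) had 62 and 59 counts in Trim28 KO, against 6 and 13 in WT (2.63 ± 0.45). Its neighbour Gm47385, 31829 bases away, had 21 and 16 counts in Trim28 KO, against 2 and 2 in WT (3.11 ± 0.69). Gm38699 (chr12:23780857-23784131, minus strand), which RefSeq lists as protein coding, had 22 and 24 counts in Trim28 KO, against 5 and 4 in WT (2.29 ± 0.57). The calls of Gm47385 and Gm38699 were lost without Trim28 KO 1 (adjusted p = 0.0897 and 0.0802), and that of Gm38699 also without Trim28 KO 2 (0.0809) and with DESeq2 (0.0597).

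The stretch bounded by these loci held 165 loci of the table, of which 34 were tested: the 10 chosen and 24 others. Those of the 24 with a Gm or Rik name had been judged by the rule and left out on these same counts. Some of them also share near-identical sequence with chosen loci, so the values of the 24 are not independent of the choice. The limits of the stretch were set after the values were seen. Of those 24, 8 were called higher (33.3%, against 8.64% of all tested genes), 0 were called lower by edgeR (1 at an unadjusted p under 0.05, 0 by DESeq2), and 22 had a log2 fold change above 0. Their median was 0.86, against -0.02 over all tested genes. The 18 with a Gm or Rik name or a pseudogene class had a median of 0.998, with 6 called higher, and the 6 other coding genes a median of 0.45, with 2 called higher. Those 2 were Ywhaq (0.69 ± 0.20, adjusted p = 0.0178), for the 14-3-3 theta protein, and Itgb1bp1 (0.54 ± 0.19, adjusted p = 0.0495), for an integrin-binding protein. Ywhaq had 3434 and 2866 counts in Trim28 KO, against 1780 and 2068 in WT, so its groups did not overlap, but the call was lost without Trim28 KO 1 or without WT 1. The call of Itgb1bp1 was lost with each library left out.

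Below 0 stood Asap2 and the antisense RNA Gm4419. Asap2 had 452 and 489 counts in Trim28 KO, against 434 and 535 in WT, a log2 fold change of -0.07 ± 0.19 (adjusted p = 0.856) that turned to 0.08 without WT 2. Gm4419 had 29 and 42 counts in Trim28 KO, against 58 and 75 in WT (-0.93 ± 0.35, adjusted p = 0.0694). Asap2, which holds the 126-base sequence, thus did not differ beyond its spread, whereas chosen copies did by the rule. Its counts cover 6962 exon bases, so they do not measure that short stretch by itself. Gm49326, the copy with 2 differences from Asap2, had 86 and 73 counts in Trim28 KO, against 68 and 41 in WT (0.51 ± 0.33, adjusted p = 0.316). Of the 35 names with a near copy of Gm49330 that the rule did not choose, 9 were tested, among them Asap2 and the overlapping 3110053B16Rik and Zfp125. Of these 9, 3 were called higher, 0 lower by edgeR (0 at an unadjusted p under 0.05, 0 by DESeq2), and 8 lay above 0. The 131 loci of the stretch too low to test held together 141 and 151 counts in Trim28 KO, against 43 and 58 in WT.

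The count of 8 rested on each library: it was 1 without Trim28 KO 1, without Trim28 KO 2 or without WT 1, 5 without WT 2, and 2 with DESeq2. In those fits with 1 library left out, 24 of 27, 22 of 25, 27 of 30 and 29 of 30 tested others had a log2 fold change above 0, sets that differ in part from the 24. The 5.883 Mb before the stretch had 21 tested genes, with 1 called higher, 4 lower and a median of 0.04. The same length after it had 24, with 6 called higher (25.0%), 3 lower and a median of 0.08. Among the genes after it was 9030624G23Rik (chr12:24043202-24097246, minus strand), 94.3% identical to 2410018L13Rik over its aligned part.

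**Figure D3:**
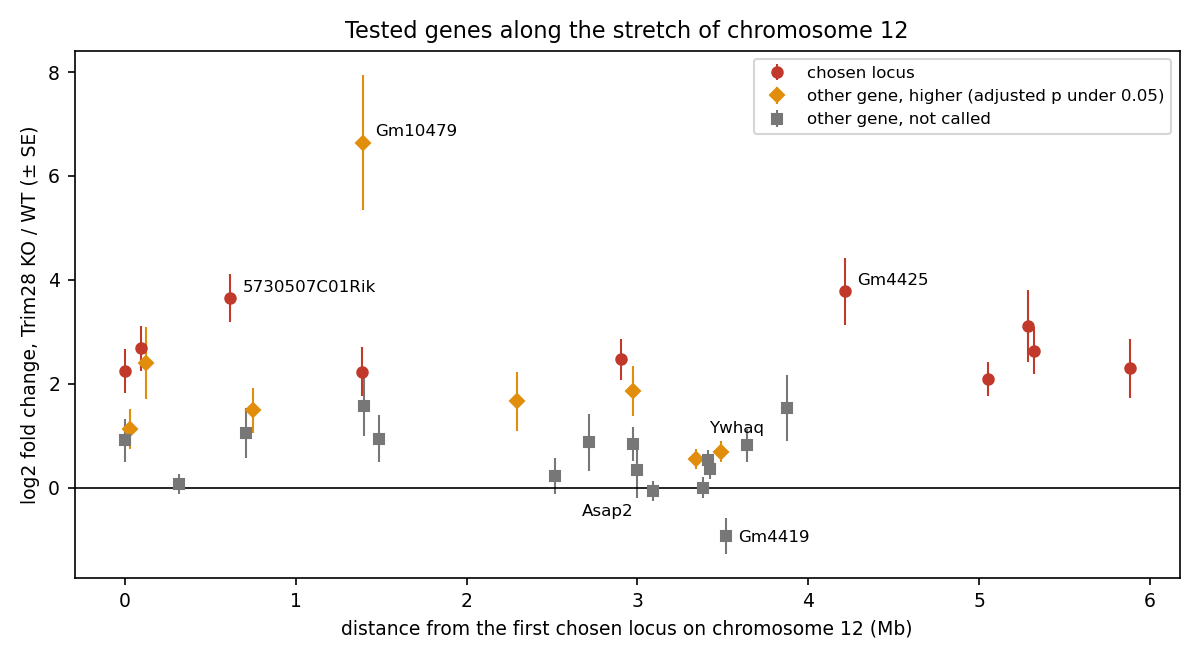
Log2 fold change (Trim28 KO over WT, ± SE) of the 34 tested genes of the chromosome 12 stretch against distance from its first chosen locus in Mb, with the 10 chosen loci as red circles, 8 other genes called higher as orange diamonds and 16 not called as grey squares. All but Asap2 and Gm4419 lie above 0, and the fitted value of Gm10479, which has 0 counts in WT, depends on the small count the fit adds.

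For genes nearby, 16 of the 22 loci had a tested gene, not itself chosen, within 100 kb, and 5 (22.7%) had such a gene that was called higher. Of the 2440 other tested Gm and Rik loci, 2100 had a tested gene within 100 kb (86.1%). A gene called higher lay near 495 of the 2440 (20.3%), so the share of all loci was near the background. A neighbour called lower lay near 3 of the 22 (13.6%), against 547 of the others (22.4%). Counted by neighbour, 5 of 41 were called higher (12.2%), against 480 of 5986 near the other loci (8.02%). Within 10 kb the loci with a neighbour called higher were 2 of 22 (9.09%), against 159 (6.52%), and within 500 kb they were 12 of 22 (54.5%), against 1254 (51.4%). Only 4 of the 22 had a tested neighbour within 10 kb (18.2%), against 1512 of the others (62.0%), so the 10 kb shares of loci have unlike bases. Counted by neighbour within 10 kb, 3 of 7 were called higher (42.9%), against 153 of 2015 (7.59%). Those 3 were Gm10479, Gm49327 and Gm49328, all on chromosome 12. No difference between these shares was tested.

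Of the 5 neighbours called higher, 4 lay in the chromosome 12 stretch and had placeholder names themselves. Gm10479, 1636 bases from Gm5953, had 10 and 15 counts in Trim28 KO, against 0 and 0 in WT summed over 2 entries of that name, which is at least 8.18-fold higher with 3 counts over the WT group as the floor (adjusted p = 8.73e-04). The entry near Gm5953 is at chr12:19292813-19301264 and the other at chr12:20426913-20435417, and the counts do not say which was transcribed. Gm10479 missed the rule only by the minimum of 15 counts, and without Trim28 KO 2 it was too low to test. 3110053B16Rik, 58346 bases from 1700030C10Rik, had 32 and 35 counts in Trim28 KO, against 7 and 11 in WT (1.86 ± 0.48, adjusted p = 0.0083). Gm49328 had 16 and 12 counts in Trim28 KO, against 2 and 3 in WT (2.40 ± 0.69, adjusted p = 0.0175), and Gm49327 had 51 and 56 in Trim28 KO, against 21 and 27 in WT (1.13 ± 0.38, adjusted p = 0.0434). Both lie inside Gm49329 and are near copies, Gm49328 of Gm38699 and Gm49327 of Gm49329. The calls of Gm49327 and Gm49328 were lost with each library left out, that of 3110053B16Rik with each but WT 2, and all 3 with DESeq2.

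Only Fam241b, 35293 bases from Gm5424 on chromosome 10, was a raised neighbour with a name of its own. It had 29 and 36 counts in Trim28 KO, against 7 and 3 in WT (2.64 ± 0.55, adjusted p = 0.0013), its genotypes did not overlap, and its call held with each library left out. On the other side of Gm5424, at 92015 bases, Col13a1, a transmembrane collagen gene, was called lower (-2.11). The other neighbours called lower were the cytochrome P450 gene Cyp3a13 (-2.75) and Zcwpw1 (-0.82), a histone reader gene, near Gm36551, and Cyp2s1 (-1.42), also a cytochrome P450 gene, and the receptor tyrosine kinase gene Axl (-0.82), near Gm30146. Of 11 tested neighbours of the chromosome 12 loci 4 were called higher and 0 lower by edgeR (0 at an unadjusted p under 0.05, 0 by DESeq2), and of 30 elsewhere 1 was called higher and 5 lower.

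**Figure D4:**
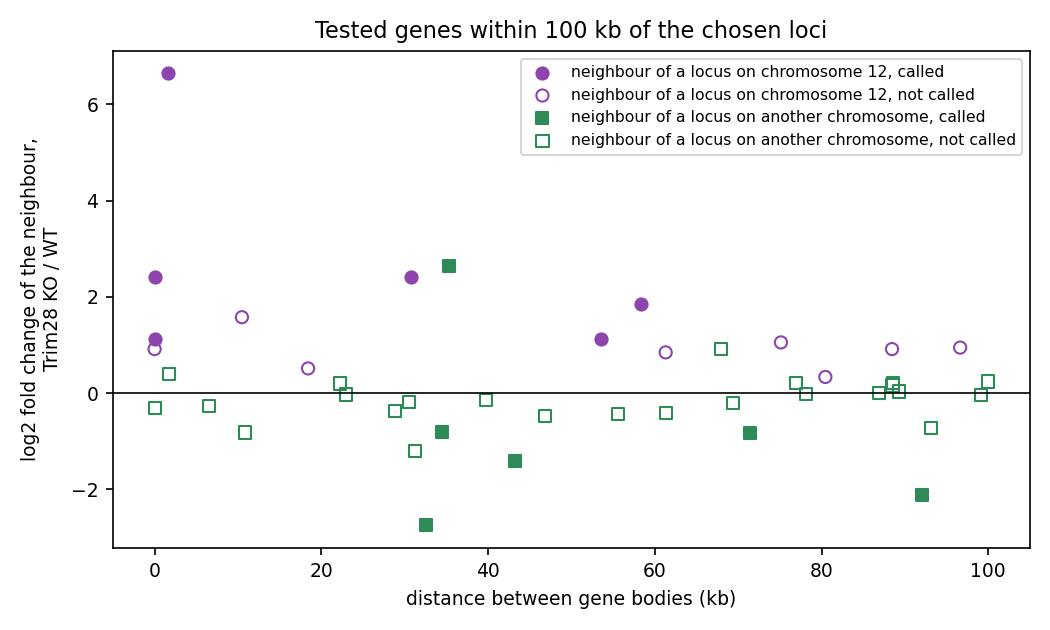
Log2 fold change (Trim28 KO over WT) of each tested neighbour against the distance between gene bodies in kb, with neighbours of chromosome 12 loci as purple circles and those of other loci as green squares, filled where called, and a gene near 2 chosen loci drawn once for each. Filled circles all lie above 0, and among filled squares Fam241b at 2.64 is the only one above 0.

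At the edge of the fold threshold, the 3 loci just inside had ratios of the Trim28 KO sum to the WT sum plus 1 of 4.56 for Gm5953, 4.25 for 2410018L13Rik and 4.10 for Gm45397. The 3 just outside were 9030624G23Rik at 3.90, with 75 and 85 counts in Trim28 KO, against 23 and 17 in WT, Gm5990 at 3.88 and Gm12892 at 3.64. Gm12892, with 668 and 731 counts in Trim28 KO, against 208 and 175 in WT, had more counts than any chosen locus except Gm5424. Another 12 loci met the fold and had at least 10 counts in each Trim28 KO library but fewer than 15 in 1 of them (10 loci) or both (2 loci). Among them Gm33838, with 24 and 12 counts in Trim28 KO, and Gm49394, with 26 and 10, had 0 in both WT libraries, each at least 11.8-fold higher by the same floor.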

How the data were processed

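Total RNA libraries of E17.5 mouse rib cartilage cells, 2 Trim28 KO and 2 WT by the labels' genotype, were compared. The deposited values are raw counts. Per the file headers, the authors ran featureCounts 1.6.4 on read pairs, with exons of GENCODE M23 (mm10) grouped under each gene name, and set no option for strand, for multiple mapping or for overlap with several genes. By default featureCounts leaves out reads that overlap several genes or that the aligner marks as multi-mapping. Whether they were marked is not given, so values of near-identical loci are uncertain. Subread 1.6.4 and edgeR are named in the submitters' processing notes. The aligner is not given in the sources used here.

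Positions and classes came from GENCODE M21 on GRCm38, the same assembly, in which 29338 of the 30635 Gm and Rik names had a position. Exon lengths, also used for RPKM, were those deposited with the counts. Genes were kept by filterByExpr, which left 16639. Counts were scaled by TMM and tested with edgeR 4.0.16 (quasi-likelihood, robust, no covariate, R 4.3.3). P-values were adjusted by Benjamini-Hochberg over all genes tested and called under 0.05. SE is the log2 fold change divided by the square root of F. A count of 3 was 0.151 to 0.159 CPM, and floors and intervals cover counting error only. Replicates were farther apart than sampling noise (chi-square per degree of freedom 24.6 for Trim28 KO and 30.6 for WT). Near copies were found with BLAST+ 2.17.0 (megablast, word size 24) and promoter windows aligned locally with Biopython 1.88. The fit was tested on simulated counts.

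The loci and gene lists were chosen with earlier results of these data known. The text names every chosen locus, up to 12 called neighbours by p-value, the loci beside the threshold, and up to 4 listed genes by p-value. Setdb1, the neighbours called lower, the near copies, the chromosome 12 stretch and the loci under the count minimum were chosen after their values were seen. The alternatives were RLE factors, library size alone, no filter, a filter of 5 CPM in 2 libraries, DESeq2 1.42.0, a replicate block, each library left out, and other limits and windows in the rule. Those for the chromosome 12 count and for Ass1, Asap2, Gm8113, Ywhaq and Itgb1bp1 were added after the data were seen.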

Additional observations from a re-analysis of the deposited data

How the results depend on the processing

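No chosen locus changed sign under any alternative. All 22 stayed called with RLE factors, library size alone, no filter and the replicate block, 19 with DESeq2, and 17 to 21 with 1 library left out. With at least 5 CPM in 2 libraries, 3 loci were tested and 3 called, 0 loci had a raised neighbour (main 5), and 1 gene of the chromosome 12 stretch was called (main 8), since most were too low to test. DESeq2 gave 2 and 2 for these counts. Both counts were also lower with any 1 library left out, and the reason was not tested. A window of 10 kb gave 2 loci with a raised neighbour, 500 kb gave 12, and leaving out Gm and Rik neighbours gave 1. The rule chose 39 loci at 3 times the WT sum, 7 at 8 times, 34 with a minimum of 10 counts, 14 with 30, and 21 on TMM-scaled counts. Over all genes, calls with 1 library left out ranged from 702 to 1442 higher and 572 to 1406 lower, lowest without Trim28 KO 1 (702 and 572), then without Trim28 KO 2 (906 and 807). Asap2 ranged from -0.154 to 0.0786 with 1 library left out, above 0 without WT 2, and the cause was not tested.

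Deviations from the group mean had a correlation of r = -0.0820 across 16639 genes between same-numbered libraries. Whether same-numbered libraries share an origin was not tested. With the replicate block 1477 genes were called higher and 1444 lower, 22 chosen loci, 5 loci with a raised neighbour and 6 genes of the stretch, and Gm49327 was no longer called. The chosen loci whose calls were lost most often, 1700007K13Rik, Gm36551 and Gm38699, had 15 to 28 counts in each Trim28 KO library. Counts were as low in Gm28651 (17 and 16) and C330018A13Rik (23 and 26), whose calls held in every alternative that tested them.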
